A study of Mus musculus with 2 samples.

Results

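The genes described here are 9 transcription factor genes that mark exhausted, effector and memory T cells, measured in CD8 T cells and Foxp3+ regulatory T cells (Tregs) from the islets of NOD mice with and without CD137. They were taken by symbol from the 27998 genes listed in both matrices and not by a threshold on their values. The list was nevertheless chosen with earlier results of these data known. It comprises *Tox*, *Tox2*, *Tcf7*, *Lef1*, *Eomes*, *Tbx21*, *Id2*, *Id3* and *Prdm1*. A CD8 T cell was a cell with at least 2 UMIs (unique molecular identifiers, each counting 1 captured transcript) of *Cd8a* and *Cd8b1* together and none of *Cd4* or *Foxp3*. A Treg had no *Cd8a* or *Cd8b1* UMI and at least 1 UMI of *Cd4*, *Foxp3*, *Il2ra* or *Ikzf2*. By these rules the wild-type library held 891 CD8 T cells and 1552 Tregs among 2714 cells that passed the quality filter, and the knockout library held 1200 CD8 T cells and 1444 Tregs among 2915.

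The study sequenced single T cells of prediabetic islets from females of the NOD strain, which develops autoimmune diabetes. The wild-type mice were NOD.Foxp3-EGFP, and the knockout mice were NOD.*Tnfrsf9*-/-.Foxp3-EGFP, in which the gene for the costimulatory receptor CD137 is disrupted in every cell, not in Tregs alone. Both strains carry the *Foxp3*-EGFP reporter used to sort Tregs, mice were 9 to 10 wk old, and each library came from islets pooled from 6 mice. Sorted CD8 T cells and GFP+ Tregs of a genotype shared 1 library, so the ratio of the lineages is set by the sort and no value here can be tied to an individual mouse.

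Each genotype is represented by 1 library, so no group has a replicate and genotypes were not tested against each other. Each level is given as counts per 1000000 UMIs of the class (CPM) with an exact Poisson 95% interval, and these intervals, like those of ratios and shares, cover counting error only. A ratio is called past the fold when its log2 value exceeds 0.5 in either direction, and the share of all genes past the same fold is given beside each count of members. All 9 genes had at least 50 UMIs in every comparison, the minimum applied to the other genes. Since detection rises with depth, shares of cells with a UMI are given after each cell was thinned at random to 2000 UMIs, which leaves out 16 to 76 shallower cells per class. The level of a gene is compared between groups and never with that of another gene, since reads of 3' libraries are not scaled per length.

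The libraries held 19904506 UMIs (wild type) and 19639995 UMIs (knockout), with a median of 4302 to 6076 UMIs per cell in the 4 groups of cells, and they shared 16 cell barcodes. *Tnfrsf9*, which encodes CD137, was at 106 CPM (99.0 to 114) in wild-type and 32.0 CPM (28.2 to 36.2) in knockout CD8 T cells, and at 337 CPM (325 to 349) in wild-type and 110 CPM (103 to 118) in knockout Tregs. The level was lower in the knockout library in both lineages (log2 ratio -1.73 and -1.61) but not at 0, and whether the remaining 3' reads lie outside the disrupted part was not examined. *Cd8a* was found in 97.0% and 96.5% of CD8 T cells. Of the Tregs, 95.4% and 93.6% had an *Ikzf2* UMI and 94.6% and 93.6% had *Ctla4*, which the rule did not use, whereas *Foxp3* itself was found in only 13.2% (wild type) and 19.5% (knockout), so the Treg label rests on the sort, *Ikzf2* and *Cd4* more than on *Foxp3* UMIs. Transcripts of other cells were sparse. The summed level per group was 2.25 to 8.60 CPM for B cell genes, 0 to 1.72 for NK cell genes, 2.85 to 25.4 for acinar genes and 9.10 to 20.1 for endocrine genes. The myeloid list (71.8 to 146 CPM) was nearly all *Cd74* and the endothelial list (42.8 to 94.6 CPM) nearly all *Pecam1*. At most 2.01% of the cells of any group had UMIs of 2 or more genes of one such list.

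*Tox* encodes an HMG-box factor that accumulates under persistent antigen receptor stimulation and is required for exhausted CD8 T cells to persist, and *Tox2* is its close relative. *Tcf7* and *Lef1* encode TCF1 and LEF1, factors of naive, memory and stem-like T cells, and a stem-like state of chronically stimulated CD8 T cells is commonly recognised by TCF1 together with TOX. *Eomes* and *Tbx21* (T-bet) are T-box factors of effector and memory cells, *Prdm1* (Blimp1) drives terminal effector differentiation, and the inhibitors of E proteins *Id2* and *Id3* are associated with effector and with memory or naive cells, respectively.

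In the GRCm38 (mm10) annotation the TOX family genes lie at chr4:6686353-6991557 (*Tox*, minus strand) and chr2:163203125-163324170 (*Tox2*, plus strand). *Tcf7* lies at chr11:52252371-52283014 (minus) and *Lef1* at chr3:131110471-131224356 (plus). The T-box genes lie at chr9:118478212-118486132 (*Eomes*, plus) and chr11:97098071-97115331 (*Tbx21*, minus). *Id2* lies at chr12:25093799-25097140 (minus), *Id3* at chr4:136143497-136145755 (plus) and *Prdm1* at chr10:44437177-44528501 (minus). Each range is a whole gene from end to end, introns included, and the UMIs of a gene are its deposited total.

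In CD8 T cells the knockout library had more *Lef1*, *Tcf7* and *Id3* transcripts and fewer *Eomes*, *Tox2* and *Tox* transcripts than the wild-type library. *Lef1* was 2.59-fold higher and *Eomes* 3.07-fold lower. In Tregs *Id2* was lower in the knockout library, *Lef1* and *Id3* were higher by less than the fold, and *Tcf7* and *Prdm1* did not differ beyond counting error. The levels of the 9 genes in the 4 groups of cells are plotted with their intervals.

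**Figure D1:**
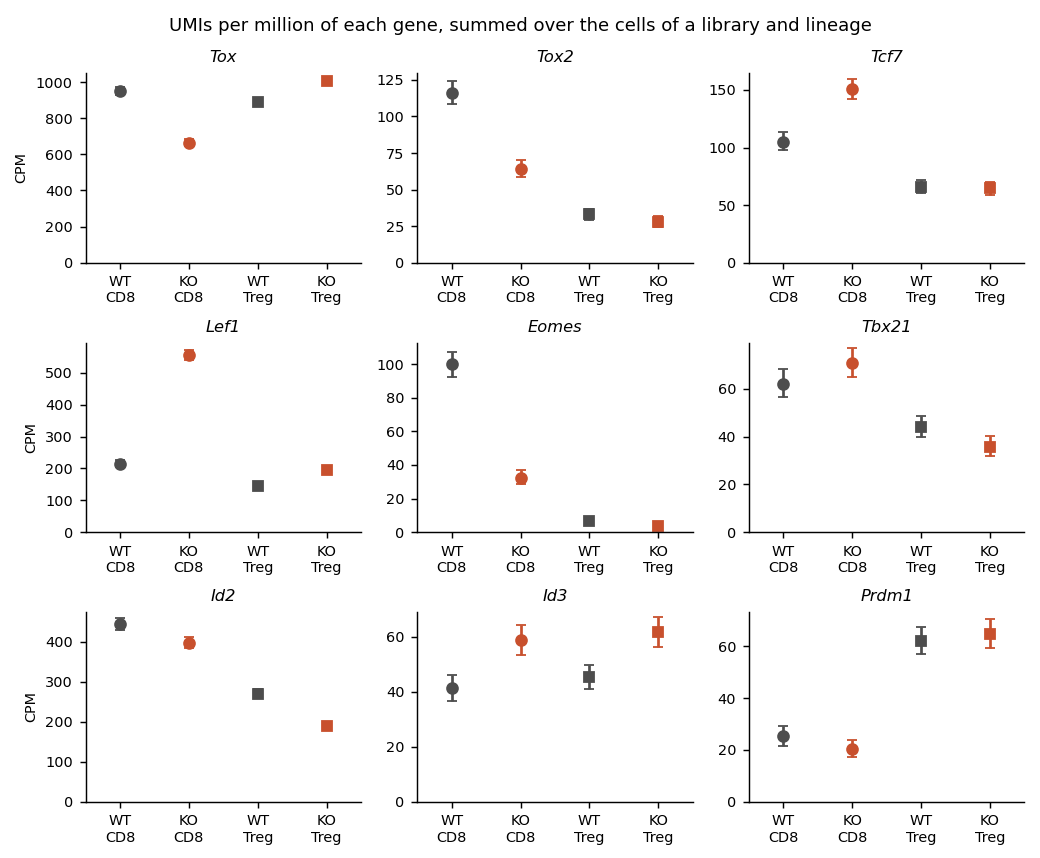
Level of each of the 9 genes (y axis of each panel, CPM, starting at 0) in wild-type CD8 T cells, knockout CD8 T cells, wild-type Tregs and knockout Tregs (x axis). Points are library sums, circles for CD8 T cells and squares for Tregs, grey for wild type and orange for knockout, and bars are exact Poisson 95% intervals. *Lef1* stands at 556 CPM in knockout CD8 T cells against 145 to 215 CPM in the other groups, *Eomes* is near 0 in both Treg groups, and *Prdm1* is higher in both Treg groups than in either CD8 group.

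*Tox* was at 950 CPM (928 to 973) in wild-type and 665 CPM (647 to 683) in knockout CD8 T cells, a log2 ratio of -0.52 (-0.57 to -0.46). Its level in Tregs was 893 CPM (873 to 913) in wild type and 1009 CPM (987 to 1031) in knockout, and the log2 ratio was 0.18 (0.13 to 0.22). By total UMIs the order was therefore knockout Tregs, wild-type CD8 T cells, wild-type Tregs and knockout CD8 T cells. The intervals of neighbours did not overlap, but they do not cover the choice of scaling. Factors from the trimmed mean of M-values (TMM) were 1.06 for knockout Tregs and 0.958 for wild-type CD8 T cells. Dividing by these factors puts wild-type CD8 T cells above knockout Tregs. After thinning, 70.4% (67.2 to 73.4) of wild-type and 51.4% (48.5 to 54.3) of knockout CD8 T cells had a *Tox* UMI, a difference of -18.9 percentage points (-23.0 to -14.7). In Tregs the shares were 73.2% and 73.5%. Among CD8 T cells with *Tox*, the median was 7 UMIs in wild type and 3 in knockout before thinning. The depth per cell was somewhat lower in knockout (median 6076 and 5275 UMIs). After thinning, 200 of 615 wild-type and 257 of 609 knockout cells with *Tox* had 1 UMI of it, and 120 and 83 had 5 or more. The cells with *Tox* thus held somewhat less of it in the knockout library at equal depth, and the unthinned medians overstate this difference.

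*Tox2* was at 116 CPM (109 to 125) in wild-type and 64.1 CPM (58.7 to 69.9) in knockout CD8 T cells, a log2 ratio of -0.86 (-1.02 to -0.70). The thinned share of cells with *Tox2* was 17.6% and 9.12%. It was lower in Tregs, at 33.0 CPM (29.3 to 37.0) in wild type and 28.0 CPM (24.5 to 31.8) in knockout, where the intervals overlap. Both TOX family genes were thus lower in knockout than in wild-type CD8 T cells.

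*Tcf7* was at 105 CPM (97.8 to 113) in wild-type and 151 CPM (142 to 159) in knockout CD8 T cells, a log2 ratio of 0.52 (0.39 to 0.65). The thinned shares were 17.0% and 23.9%, a difference of 6.85 points (3.33 to 10.3). In Tregs *Tcf7* was lower than in either CD8 group, at 65.9 CPM (60.7 to 71.5) and 64.5 CPM (59.1 to 70.3), which do not differ beyond counting error. *Lef1* had the largest difference towards knockout of the 9 genes. It was at 215 CPM (204 to 226) in wild-type and 556 CPM (539 to 572) in knockout CD8 T cells, a log2 ratio of 1.37 (1.29 to 1.46), and the thinned shares were 27.3% and 52.4%, a difference of 25.1 points. In Tregs *Lef1* was at 145 CPM (138 to 154) and 193 CPM (184 to 203), a log2 ratio of 0.41 (0.30 to 0.52). *Lef1* was therefore higher in the knockout library in both lineages, whereas the interval for *Tcf7* excluded 0 in CD8 T cells and included 0 in Tregs.

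*Eomes* was at 99.8 CPM (92.5 to 107) in wild-type and 32.5 CPM (28.7 to 36.7) in knockout CD8 T cells, a log2 ratio of -1.62 (-1.83 to -1.41). The thinned share of CD8 T cells with *Eomes* was 14.1% and 4.39%. In Tregs it was at 6.64 CPM and 3.43 CPM, from 59 and 28 UMIs, and the 1% of Tregs with most *Eomes* held 69.5% of its UMIs in wild type and 82.1% in knockout, so that few cells carried them. The thinned share of Tregs with *Eomes* was 0.542% and 0.576%. *Tbx21* was at 62.2 CPM (56.5 to 68.3) in wild-type and 70.9 CPM (65.2 to 77.1) in knockout CD8 T cells, a log2 ratio of 0.19 (0.0076 to 0.37), but the thinned counts of cells with *Tbx21* were 98 of 874 and 130 of 1184, and the sign turned under 3 other settings. In Tregs *Tbx21* was at 44.2 CPM (40.0 to 48.8) and 35.8 CPM (31.8 to 40.2), and the log2 ratio was -0.30 (-0.53 to -0.08). The T-box genes therefore differed from each other: *Eomes* was a CD8 transcript with a lower level in the knockout library, and *Tbx21* was found in both lineages with a small difference.

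*Id2* was at 444 CPM (429 to 460) in wild-type and 398 CPM (384 to 412) in knockout CD8 T cells, a log2 ratio of -0.16 (-0.23 to -0.09). In Tregs it was at 271 CPM (260 to 282) and 190.4 CPM (181 to 200.1), a log2 ratio of -0.51 (-0.60 to -0.42), and the thinned share was 31.5% and 22.9%. The summed level of *Id2* was thus lower in the knockout library in each lineage, and the difference between the lineages was not tested. It was not lower beyond counting error within CD8 T cells divided by *Ccr7*, whose values are given with that division. *Id3* was at 41.2 CPM (36.6 to 46.2) and 58.7 CPM (53.5 to 64.3) in CD8 T cells and at 45.2 CPM (40.9 to 49.9) and 61.7 CPM (56.4 to 67.3) in Tregs, for wild type and knockout. The log2 ratios were 0.51 (0.30 to 0.73) and 0.45 (0.26 to 0.64). In CD8 T cells the thinned share with *Id3* was 7.32% and 7.94%, a difference of 0.62 points (-1.76 to 2.90), and the thinned level was 45.2 and 51.1 CPM, a log2 ratio of 0.18. *Prdm1* was at 25.2 CPM (21.7 to 29.2) and 20.5 CPM (17.5 to 23.9) in CD8 T cells and at 62.0 CPM (56.9 to 67.4) and 64.8 CPM (59.4 to 70.5) in Tregs, and the intervals of the ratios of these levels included 1 in both lineages. Its thinned share in CD8 T cells was lower in the knockout library, at 4.92% and 3.04%, a difference of -1.88 points (-3.72 to -0.19).

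Read against all genes, 3 of the 9 members (*Lef1*, *Tcf7* and *Id3*) were past the fold as higher in knockout CD8 T cells, where 15% of 9770 genes were, and 3 (*Eomes*, *Tox2* and *Tox*) as lower, where 9.32% were. *Tcf7*, *Id3* and *Tox* were close to the threshold: over the other settings the log2 ratio of *Tcf7* was as low as 0.19 (without cells with at least 2 proliferation UMIs), that of *Id3* as low as 0.18 (after thinning) and that of *Tox* as near 0 as -0.25 (in cells with no *Ccr7* UMI). The median log2 ratio was -0.16 for the members and 0.03 for all genes. In Tregs no member was past the fold as higher, against 8.05% of 10157 genes, and 2 were lower (*Eomes*, at -0.95 from 59 and 28 UMIs and at -0.064 after thinning, and *Id2*, at -0.51, with -0.45 under a looser lineage rule), against 3.2%. The median was -0.03 for the members and 0.04 for all genes. Scaling by the trimmed mean of M-values (TMM) left these counts of members as they were, and changed the share of higher genes among those past the fold from 71.6% to 60.9% in Tregs.

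A fraction of cells with *Ccr7*, the gene for a lymph node homing receptor of naive and central memory cells, differed between the CD8 T cells of the libraries and moves with these genes. Of the wild-type CD8 T cells, 79.9% had no *Ccr7* UMI, against 58.7% in the knockout library. In Tregs the shares were 82.3% and 82.8%. At least 2 UMIs of proliferation genes were found in 24.5% of CD8 T cells in wild type and 11% in knockout, and in 13.2% and 15.6% of Tregs. In the summed values a different number of cells of a type and a different amount of RNA per cell cannot be told apart, so the genotypes were compared again within the cells that had no *Ccr7* UMI and within those that had one, a division chosen after seeing the data.

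Among CD8 T cells without *Ccr7*, *Eomes* was still lower in the knockout library (113 CPM in wild type and 38.3 CPM in knockout, log2 ratio -1.56, -1.81 to -1.32). *Lef1* (113 and 324 CPM, 1.51, 1.38 to 1.65) and *Tcf7* (84.8 and 122 CPM, 0.53, 0.35 to 0.70) were still higher. *Tox* was at 1049 CPM in wild type and 881 CPM in knockout, a log2 ratio of -0.25 (-0.31 to -0.19), which is nearer to 0 than in all CD8 T cells, and *Tox2* had a log2 ratio of -0.50 (-0.67 to -0.34). These ratios changed with thinning. When cells were thinned first and then divided, the ratio was -0.57 for *Tox*, -0.76 for *Tox2*, 1.26 for *Lef1* and -1.67 for *Eomes*. The cells with no *Ccr7* UMI then numbered 797 in wild type and 934 in knockout, against 712 and 704 before. Every cell also had the same number of UMIs, and which of these moved the ratios was not tested. *Tbx21* was higher among these knockout cells (66.3 and 90.5 CPM, 0.45, 0.25 to 0.65), with 0.25 (-0.11 to 0.61) after thinning. *Id2* had a log2 ratio of -0.011 (-0.09 to 0.07), and of -0.14 (-0.28 to 0.0063) after thinning. In this stratum 2 members (*Lef1* and *Tcf7*) were past the fold as higher, against 14.9% of 9204 genes, and 2 (*Eomes* and *Tox2*) as lower, against 6.79%. After thinning *Lef1* was past the fold as higher, while *Tcf7* was at 0.45 (0.16 to 0.74). *Eomes*, *Tox2*, *Tox* and *Prdm1* were past it as lower, the last within counting error (29.5 and 20.3 CPM, -0.54, -1.19 to 0.11). The share of all genes past the fold is not given for thinned cells, so these members cannot be read against it.

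Among CD8 T cells with a *Ccr7* UMI, *Tox* was at 505 CPM in wild type and 335 CPM in knockout, a log2 ratio of -0.59 (-0.74 to -0.45). *Lef1* was at 673 and 909 CPM there (0.43, 0.32 to 0.55), and *Tcf7* at 198 and 194 CPM (-0.03, -0.24 to 0.19). *Tcf7* therefore did not differ beyond counting error between genotypes in these cells. *Eomes* was at 39.4 CPM in wild type and 23.6 CPM in knockout (-0.74, -1.28 to -0.19), and *Tox2* at 32.3 and 16.9 CPM (-0.93, -1.55 to -0.31). After thinning both were within counting error, *Eomes* at 0.04 from 3 wild-type and 10 knockout UMIs and *Tox2* at -2.28 from 3 and 2. *Id2* was higher in the knockout library there, at 217 and 256 CPM (0.24, 0.04 to 0.44), with 0.85 (0.24 to 1.51) after thinning. In Tregs the split left *Tox* and *Id2* much as they were: without *Ccr7* the log2 ratio was 0.16 for *Tox* and -0.54 for *Id2*, and with it 0.21 and -0.48. *Lef1* and *Id3*, within the fold in all Tregs, were each past it as higher in one of the strata. In Tregs with *Ccr7*, *Eomes* (-1.21, from 40 wild-type and 14 knockout UMIs) and *Tox2* (-0.78, from 53 and 25) were past it as lower. Both were within counting error there after thinning. The share of all genes past the fold is not given for the Treg strata. *Lef1* was at 147 and 245 CPM in Tregs with *Ccr7* (0.73, 0.52 to 0.95), and *Id3* at 36.6 and 54.8 CPM in those without (0.58, 0.34 to 0.82). After thinning these ratios were 0.59 (0.09 to 1.09) for *Lef1* and 0.48 (0.12 to 0.84), within the fold, for *Id3*. After thinning, the *Tox* ratio in Tregs with *Ccr7* was -0.18 (-0.48 to 0.12), while that in Tregs without was 0.12 (0.04 to 0.19).

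**Figure D2:**
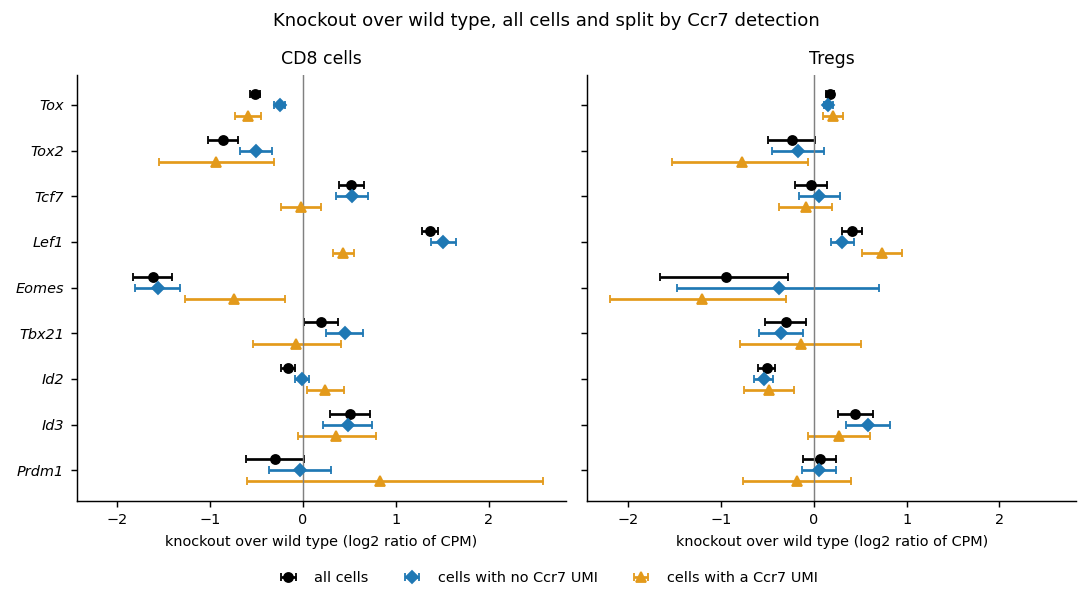
Log2 ratio of knockout over wild type for each of the 9 genes (rows) in CD8 T cells and in Tregs (panels), for all cells (black circles), for cells with no *Ccr7* UMI (blue diamonds) and for cells with such a UMI (orange triangles). Lines are exact 95% intervals for counting error. In CD8 T cells the ratio of *Tox* is -0.52 in all cells, -0.25 without *Ccr7* and -0.59 with it, whereas *Eomes* is below 0 and *Lef1* above 0 in all of them. Ratios are from unthinned cells, and after thinning that of *Eomes* in CD8 T cells with *Ccr7* is 0.04 (-1.92 to 2.54).

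The genes known to accompany these factors were counted in lists by function. Of all genes, 15% were past the fold as higher and 9.32% as lower in knockout CD8 T cells, and 8.05% and 3.2% in knockout Tregs. In CD8 T cells, 6 of 13 naive or stem-like genes were past the fold as higher in the knockout library and none as lower (median log2 ratio 0.50), among them the IL-7 receptor gene *Il7r* (56.9 and 131 CPM, 1.21) and *Bach2*, a repressor that maintains quiescent T cells (151 and 358 CPM, 1.25). Of 14 effector genes 8 were lower and 2 higher (median -0.74). *Gzmk*, a granzyme gene of memory-like effector cells, was at 178 and 47.4 CPM (-1.91), whereas the summed level of *Gzma* was higher (59.0 and 138 CPM, 1.22). The thinned share of cells with *Gzma* did not differ beyond counting error (0.26 points, -1.31 to 1.74), while that of *Gzmk* differed by -16.6 points. *Gzmb* was within the fold (181 and 164 CPM, -0.14). Of 14 co-inhibitory or chronic stimulation genes 5 were lower and 1 higher (median -0.28). *Pdcd1*, encoding PD-1, was at 273 and 144 CPM (-0.93) and *Entpd1*, encoding CD39, at 72.8 and 32.4 CPM (-1.17), whereas *Irf4*, a factor induced by receptor signalling, was higher (26.8 and 40.5 CPM, 0.59). Of 11 cofactors of the members 3 were higher and none lower (median 0.08), namely the E protein gene *Tcf12* (0.71), the TCF corepressor gene *Tle4* (0.89) and *Runx3* (0.56). Of 5 proliferation genes 4 were lower (median -1.22). In Tregs 3 of 13 naive or stem-like genes were higher and none lower (median 0.26), 2 of 14 co-inhibitory genes were lower and none higher (median -0.12), and of 11 effector genes 1 was higher and 2 lower (median -0.17). Of the 11 cofactors 1 was higher in Tregs and none lower (median 0.02), and of the 5 proliferation genes 2 were higher and 1 lower (median -0.02). The counts of 1 of 11 higher effector genes and cofactors in Tregs are near the share of all genes.

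Between lineages, most members (*Eomes*, *Tox2*, *Id2*, *Tcf7*, *Lef1* and *Tbx21*) were lower in Tregs than in CD8 T cells in both libraries, *Prdm1* was higher in Tregs in both, and *Tox* was higher in Tregs in the knockout library. In the wild-type library the log2 ratio of Tregs over CD8 T cells was -3.91 for *Eomes*, -1.82 for *Tox2*, -0.72 for *Id2*, -0.67 for *Tcf7*, -0.56 for *Lef1* and -0.49 for *Tbx21*, and 1.30 (1.05 to 1.55) for *Prdm1*. *Tox* (-0.09) was nearly as high in Tregs as in CD8 T cells, and *Id3* (0.13, -0.09 to 0.36) did not differ beyond counting error. In the knockout library the ratios were -3.24 for *Eomes*, -1.52 for *Lef1*, -1.22 for *Tcf7*, -1.20 for *Tox2*, -1.06 for *Id2*, -0.99 for *Tbx21*, 0.07 for *Id3*, 0.60 for *Tox* and 1.66 for *Prdm1*. In wild type 1 member was past the fold as higher in Tregs, against 20.2% of 10026 genes, and 5 as lower, against 8.99%. In knockout 2 were higher, against 19% of 10097 genes, and 6 lower, against 7.9%. TMM scaling lowers every log2 ratio of Tregs over CD8 T cells by 0.10 in wild type and 0.14 in knockout. The share of higher genes among those past the fold then went from 69.2% to 58.9% and from 70.7% to 54.8%. With it 1 member was higher and 6 lower in each library, since *Tbx21* passed the threshold in wild type and *Tox* no longer did in knockout.

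Whether the factors occur in the same cells was asked for all 36 pairs in thinned cells. The number of cells with both genes was set against the number given by the product of the shares, and the share with one gene was compared between cells with and without the other. At 2000 UMIs a gene is missed in many cells that express it, so these values describe detection in the same cell and not the full overlap. The median cell had 2 of the 9 genes in every group, and 4.35% and 5.24% of wild-type and knockout CD8 T cells and 9.08% and 9.43% of Tregs had none.

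*Tox* and *Tcf7*, the pair by which stem-like exhausted cells are often recognised, were found together about as often as their shares give. In wild-type CD8 T cells 108 cells had both against 104.8 given by the shares, a ratio of 1.03 (log2 0.04, against -0.22 to -0.04 over 8 alternatives), and *Tcf7* was found in 17.6% of cells with *Tox* and 15.83% of those without. In knockout CD8 T cells 136 cells had both against 145.6, a ratio of 0.93, with *Tcf7* in 22.3% of cells with *Tox* and 25.6% of those without. In wild-type Tregs the numbers were 121 against 123.7 and in knockout Tregs 123 against 125.0. The interval of the difference in share included 0 in all 4 groups, and Pearson's r of the UMIs across the cells of a group was between -0.03 and 0.04. The ratios stand near the middle of what all genes give with *Tcf7* in wild-type CD8 T cells, where the median of 3914 genes was 0.98 and the 5th to 95th percentile ran from 0.61 to 1.39.

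The share with *Tox* among CD8 T cells with *Tcf7* was close to that of all CD8 T cells of the same library (70.4% in wild type and 51.4% in knockout) and so lower in knockout. Of the CD8 T cells with *Tcf7*, 72.5% (64.6 to 79.5; 108 of 149) had *Tox* in wild type and 48.1% (42.1 to 54.0; 136 of 283) in knockout, against 71.6% and 72.4% in Tregs, where the shares of all cells were 73.2% and 73.5%. The class with both genes held 12.4% (10.2 to 14.7) of wild-type and 11.5% (9.73 to 13.4) of knockout CD8 T cells. The class with *Tox* and no *Tcf7* held 58.0% and 39.9%, and that with *Tcf7* and no *Tox* held 4.69% and 12.4%. The intervals of the genotypes thus overlapped for the class with both genes and lay apart for the 2 classes with one of them.

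**Figure D3:**
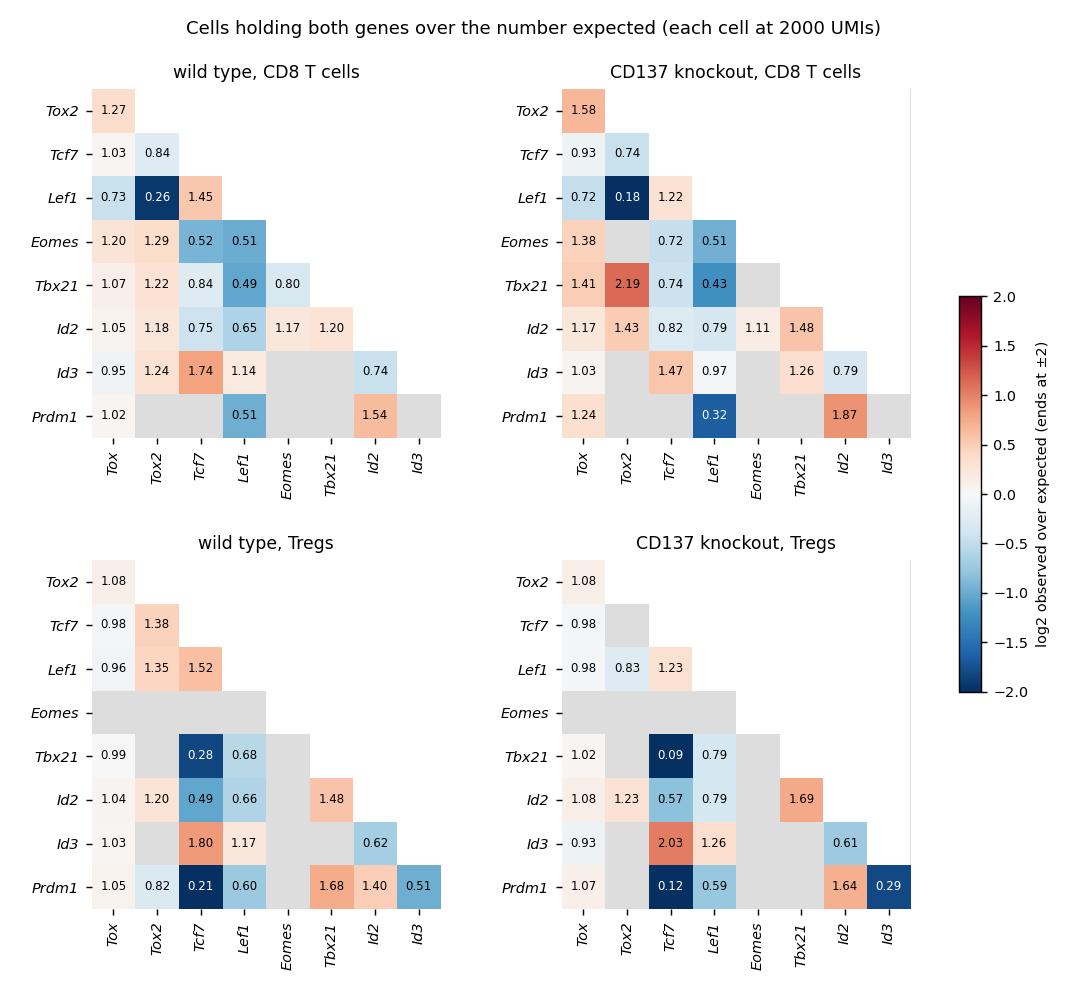
Observed over expected number of cells with both genes for each of the 36 pairs (rows and columns are the 9 genes) in the 4 groups of cells, after thinning to 2000 UMIs. Colour is the log2 of the ratio, ending at 2 in each direction, the printed number is the ratio, and grey marks pairs with an expected number under 10 cells. *Tcf7* with *Id3* is above 1 in every panel (1.47 to 2.03) and *Tox* with *Tcf7* is near 1 in every panel (0.93 to 1.03).

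Of the 36 pairs, 20 had an expected number of at least 10 cells in all 4 groups. Among these, 4 were found together more often than the shares give, beyond counting error, in every group, and 3 less often. The share of all gene pairs called in this way is not given, so these counts cannot be read against it. *Tcf7* with *Id3* had the highest ratio in both wild-type lineages, 1.74 in CD8 T cells and 1.80 in Tregs, with 1.47 and 2.03 in the knockout library. *Tcf7* with *Lef1* was at 1.45 and 1.22 in CD8 T cells and 1.52 and 1.23 in Tregs, for wild type and knockout. On the effector side, *Tbx21* with *Id2* was at 1.20 and 1.48 in CD8 T cells and 1.48 and 1.69 in Tregs, and *Id2* with *Prdm1* at 1.54 and 1.87 in CD8 T cells and in 75 cells against 53.6 and 53 against 32.3 in Tregs. The pairs below 1 in every group joined a gene of each side. *Tcf7* with *Id2* was at 0.75 and 0.82 in CD8 T cells and 0.49 and 0.57 in Tregs. *Lef1* with *Id2* was between 0.65 and 0.79, and *Lef1* with *Prdm1* between 0.32 and 0.60. *Tcf7* with *Prdm1*, which had fewer expected cells, was found together in 1 CD8 T cell against 7.3 in wild type and in 3 against 8.6 in knockout. In Tregs it was found in 4 cells against 19.5 and in 2 against 17.3. *Id2* with *Id3* was between 0.61 and 0.79, beyond counting error in the share in 3 of the 4 groups, but above 1 in wild-type CD8 T cells under the stricter lineage rule (log2 ratio 0.31). These calls rest on the interval of the difference in share. The interval of the ratio itself included 1 for *Tcf7* with *Lef1* in knockout Tregs (log2 -0.07 to 0.65), for *Tbx21* with *Id2* in wild-type CD8 T cells (-0.13 to 0.63) and for *Lef1* with *Prdm1* in wild-type CD8 T cells (-2.41 to 0.15).

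The same ratio was computed between a member and all other genes, which gives the range of such values. For *Tcf7* the 5th to 95th percentile was 0.66 to 1.29 in knockout CD8 T cells and 0.61 to 1.38 in knockout Tregs. Its ratios of 1.22 and 1.23 with *Lef1* lay within these ranges. Those of *Tcf7* with *Id2* in CD8 T cells, 0.75 and 0.82, also lay within the range for *Tcf7* of their library. *Lef1* with *Id2* lay within the range for *Lef1* except in wild-type Tregs, where it was at 0.66 and the range began at 0.69. *Lef1* with *Prdm1* lay below that range except in wild-type CD8 T cells, where it was at 0.510 and the range began at 0.505. The ratios of *Tbx21* with *Id2* in CD8 T cells lay within the ranges for *Tbx21*, 0.68 to 1.41 in wild type and 0.64 to 1.52 in knockout, and those in Tregs above them. Those of *Tcf7* with *Id3* lay above the range for *Tcf7* in all 4 groups, and those of *Id2* with *Prdm1* above the range for *Id2*.

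Other pairs differed between the lineages. *Tox* with *Lef1* was at 0.73 and 0.72 in wild-type and knockout CD8 T cells but at 0.96 and 0.98 in Tregs. In wild-type CD8 T cells *Lef1* was found in 123 of 615 cells with *Tox* and in 44.8% of cells without, and in knockout in 37.8% and 68.0%. *Tox2* with *Lef1* was the lowest pair in CD8 T cells, with 11 cells against 42.1 (0.26) in wild type and 10 against 56.7 (0.18) in knockout, while in Tregs it was at 1.35 and 0.83. *Tox* with *Tox2* was at 1.27 and 1.58 in CD8 T cells and 1.08 in both Treg groups. *Eomes* with *Tbx21* was found together in 11 wild-type CD8 T cells against 13.8, a ratio of 0.80, so the T-box genes were not found together beyond their shares. *Tox* with *Id3* was between 0.93 and 1.03 in the 4 groups. Within CD8 T cells *Lef1* thus separated from both TOX family genes, whereas *Tcf7* did not separate from *Tox*.

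The level of *Tox* per cell gave the same division. In wild-type CD8 T cells *Lef1* was found in 44.8% of cells with no *Tox* UMI, 31.0% with 1, 26.7% with 2, 11.6% with 3 to 4 and 5.83% with 5 or more. In knockout CD8 T cells the shares were 68.0%, 52.9%, 42.6%, 20.3% and 9.64%. *Tcf7* had no such course in wild-type CD8 T cells, at 15.83%, 19.5%, 14.5%, 19.5% and 15.0%. In knockout CD8 T cells it was at 25.6%, 24.5%, 24.1% and 24.2%, and at 9.64% (4.25 to 18.1; 8 of 83 cells) with 5 or more *Tox* UMIs. *Tox2* ran the other way, from 6.18% of wild-type CD8 T cells with no *Tox* UMI to 29.2% with 5 or more, and from 3.48% to 27.7% in knockout. In Tregs the shares had no steady course over the bins. *Lef1* was at 24.7%, 24.7%, 21.2%, 16.9% and 25.2% in wild type and at 31.5%, 33.3%, 29.6%, 24.1% and 30.3% in knockout. *Tcf7* was between 10% and 12.2% in wild type and between 8.16% and 13.6% in knockout. Both were lowest at 3 to 4 *Tox* UMIs in each library.

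**Figure D4:**
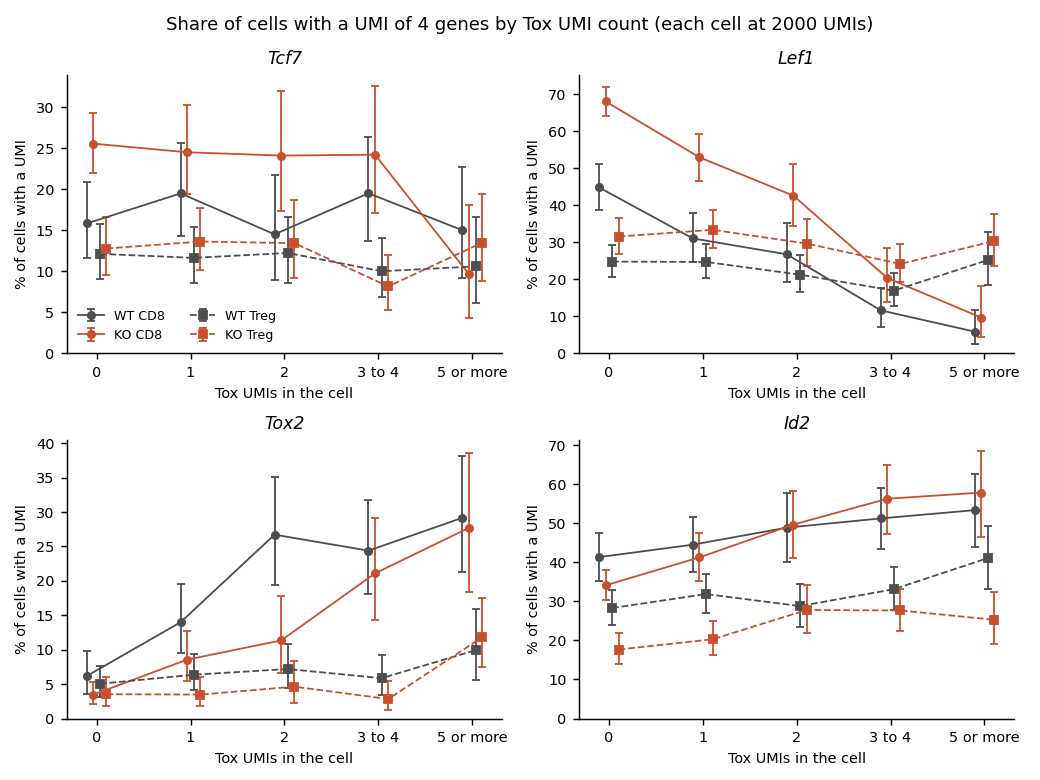
Percent of thinned cells with a UMI of *Tcf7*, *Lef1*, *Tox2* or *Id2* (panels, y axis) by the number of *Tox* UMIs in the cell (x axis: 0, 1, 2, 3 to 4, 5 or more) in wild-type and knockout CD8 T cells and Tregs. Bars are exact binomial 95% intervals. *Lef1* goes from 44.8% to 5.83% in wild-type and from 68.0% to 9.64% in knockout CD8 T cells, while in Tregs it stays between 16.9% and 33.3%.

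To see what *Tcf7* marks among *Tox*-positive CD8 T cells, the levels of genes that the division did not use were compared between *Tox*-positive cells with and without *Tcf7*, in each library separately. *Tox*-positive cells with *Tcf7* had more naive or stem-like transcripts and fewer effector transcripts in both libraries. *Slamf6*, a surface marker of stem-like exhausted CD8 T cells, was at 227 CPM with *Tcf7* and 96.6 CPM without in wild type (log2 ratio 1.23), and at 279 and 144 CPM in knockout (0.96). *Il7r* had log2 ratios of 1.12 and 0.61 and the chromatin organiser gene *Satb1* 0.52 and 0.73. *Xcl1*, a chemokine gene on the same list, went the other way, at -0.78 and -1.90. Beyond counting error, 5 of 12 naive or stem-like genes were higher and 1 lower in wild type, and 6 of 11 higher and 2 lower in knockout. Of all genes tested, 4.86% were higher and 4.27% lower beyond counting error in wild type, and 3.91% and 4.54% in knockout.

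Effector genes were lower with *Tcf7*. Of 14 such genes 10 were lower in wild type and none higher, and of 12 in knockout 9 were lower and none higher. *Gzmb* was found with 2 UMIs in the wild-type cells with *Tcf7* and 212 in those without (9.26 and 209 CPM), and with 0 and 259 in knockout. The log2 ratio was -2.19 and -3.17 for *Cxcr6*, a tissue residency receptor gene, and -1.33 and -1.71 for the chemokine gene *Ccl5*. Co-inhibitory genes were lower with *Tcf7* for 6 of 14 in each library and higher for none. *Pdcd1* was at 144 and 367 CPM in wild type (-1.35) and at 69.9 and 238 CPM in knockout (-1.77). *Lag3* had log2 ratios of -0.81 and -0.68, and *Entpd1* was found with 1 and 98 UMIs in wild type and 0 and 58 in knockout. *Havcr2*, encoding TIM-3, was found with 1 and 50 UMIs and with 0 and 46. *Ctla4* (-0.04 and -0.27) and *Batf* (-0.18 and -0.20) were within counting error. Of the members themselves, *Lef1* was higher with *Tcf7* (0.61 and 0.48) and *Id2* lower (-0.81 and -0.44). *Prdm1* was found with 0 UMIs in the wild-type cells with *Tcf7*, where 3 UMIs would be 13.9 CPM, against 34 in those without, and with 1 against 24 in knockout. Of the cofactors 1 of 11 was higher in wild type and 2 of 10 lower in knockout, and of 5 proliferation genes 1 and 4 were lower.

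**Figure D5:**
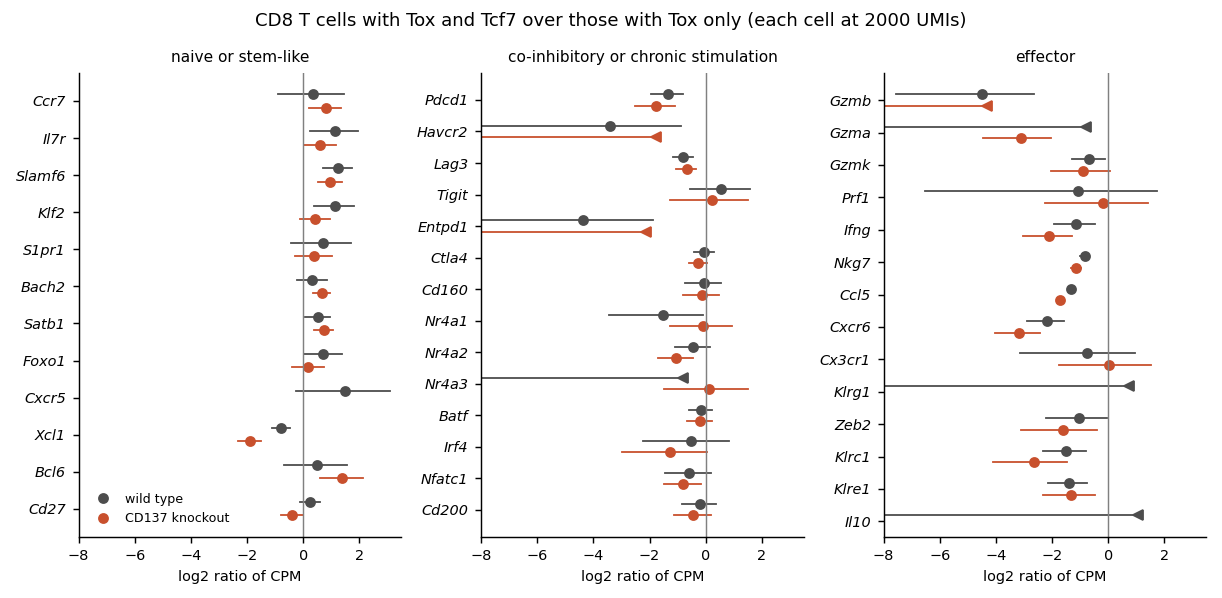
Log2 CPM ratio of *Tox*-positive *Tcf7*-positive over *Tox*-positive *Tcf7*-negative CD8 T cells (x axis) for the genes of the naive or stem-like, co-inhibitory and effector lists (rows), in wild type (grey) and knockout (orange), from cells thinned to 2000 UMIs. Lines are exact 95% intervals for counting error, and left-pointing triangles stand at the upper bound for genes with 0 UMIs in the *Tcf7*-positive cells. *Slamf6* lies to the right of 0 in both libraries (1.23 and 0.96), and *Pdcd1* (-1.35 and -1.77) and *Ccl5* (-1.33 and -1.71) lie to the left.

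The other division, *Tox*-positive against *Tox*-negative cells among those with *Tcf7*, separated both co-inhibitory and effector genes. With *Tox*, 5 of 9 co-inhibitory genes were higher in wild-type CD8 T cells and 8 of 10 in knockout, and none was lower (median log2 ratio 1.23 and 1.55). Of the effector genes, 3 of 8 were higher in wild type and 5 of 7 in knockout, and none was lower (median 1.43 and 1.46). Of all genes tested, 4.17% were higher and 3.29% lower in wild type, and 5.42% and 2.91% in knockout. *Lag3* had log2 ratios of 1.21 and 2.55 and *Batf*, an AP-1 factor gene, 1.39 and 1.62. *Pdcd1* was found with 31 and 5 UMIs in wild type and with 19 and 0 in knockout. Of 11 naive or stem-like genes 1 was higher and 2 lower in wild type, and 3 were higher and 2 lower in knockout. *Lef1* was lower with *Tox* (-1.32 and -0.84). Among cells with *Tcf7*, those with *Tox* thus had more transcripts of co-inhibitory and effector genes and fewer of *Lef1*.

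In Tregs the same division by *Tcf7* was made among *Tox*-positive cells. Of 13 naive or stem-like genes 5 were higher with *Tcf7* in wild type and 4 in knockout, and none was lower. Of all genes tested, 5.02% were higher and 5.1% lower in wild type, and 4.44% and 4.74% in knockout. *Bach2* was among the higher genes (1.49 and 0.84). Of the co-inhibitory genes, 6 of 13 were lower and 1 higher in wild type, and 6 of 14 lower and none higher in knockout. *Lag3* had log2 ratios of -2.12 and -2.31. *Il10*, encoding a suppressive cytokine, was found with 0 UMIs in the *Tcf7*-positive cells against 296 in the others in wild type, and with 2 against 234 in knockout. Of the effector genes, 7 of 11 were lower in wild type and 6 of 10 in knockout, and none was higher. *Id2* was lower with *Tcf7* as well (-1.42 and -1.43). *Id2* and most of the effector genes tested were therefore lower in *Tox*-positive cells with *Tcf7* than in those without, in both lineages and libraries.

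The genes found most with each member were taken by a fixed rule, the highest log2 CPM ratio between cells with and without the member in wild type, with 10 CPM added to both. With *Tox* in CD8 T cells these included *Tox2* (1.66 in wild type, 1.62 in knockout) and the chemokine gene *Ccl3* (1.54 and 1.57). With *Lef1* they included genes of quiescent and recirculating T cells, namely *Dapl1* (2.81 and 1.89), *Tsc22d3* (2.19 and 1.63) and *Klf2* (1.70 and 1.42). With *Id2* they included *Gzmb* (1.87 and 1.68) and *Cxcr6* (1.44 and 1.53), and with *Tox2* *Ifng* (1.38 and 1.02) and the receptor gene *Cd160* (1.20 and 1.76). With *Eomes* the list held cell cycle genes, *Cenpa* (1.33 and 1.04) and *Ube2c* (1.31 and 2.27), beside the NK receptor gene *Klrc1* (1.25 and 1.59). *Eomes* was lower in the knockout library, where fewer CD8 T cells had proliferation UMIs, and without the cells with at least 2 such UMIs its log2 ratio of knockout over wild type was -1.27. In Tregs, *Prdm1* and *Tbx21* shared *Ccl4*, *Gzmb* and *Il10* among their genes, with *Il10* at 1.23 and 1.72 for *Prdm1* and at 1.58 and 1.97 for *Tbx21*. For *Tcf7* the list began with *A630014C17Rik* in CD8 T cells (1.71 and 0.71) and held *Aff3* in CD8 T cells (1.46 and 0.40) and in Tregs (1.60 and 1.14). Since all these genes were picked for a high wild-type ratio, lower ratios in knockout follow in part from the choice. They are not read as a difference between genotypes.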

How the data were processed

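The deposited matrices hold raw UMI counts per gene and cell, made by the authors with Cell Ranger 7.0.0 and the mm10 genome per the submitters' processing notes. Whether intronic reads were counted is not given in the sources used here. The quality filter kept 200 to 5000 detected genes per cell and removed any cell over 20% mitochondrial UMIs, and 2 lineages were set by the UMI rules in the report. No doublet caller was run. Cells with a *Cd8a* or *Cd8b1* UMI and a *Cd4* or *Foxp3* UMI fall in neither class, whereas *Ikzf2* or *Il2ra* UMIs do not remove a CD8 T cell (40.3% and 28.1% of them had *Ikzf2*, 5.05% and 4.25% *Il2ra*). Library totals were 19904506 and 19639995 UMIs.

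The 9 genes and the gene lists were chosen with earlier results of these data known. All 9 genes were named in every group. List genes were counted whole and named as examples after their values were seen. Genes found with a member were the 5 with the highest wild-type log2 CPM ratio (10 CPM added, at least 100 thinned UMIs, at least 50 cells). Intervals are exact Poisson, Clopper-Pearson, Newcombe or exact conditional 95% intervals.

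Alternatives were TMM factors from edgeR 4.0.16 in R 4.3.3, other totals, weights, cell filters, lineage rules, subsets and thinning depths. The TMM counts of genes past the fold and the division by *Ccr7* were added after seeing the data. Of the lists and alternatives, 1 gene and the alternative that used it are not reported here. Scripts used Python 3.11.15, numpy 2.4.6, scipy 1.17.1 and matplotlib 3.10.9 and were checked on simulated data.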

Additional observations from a re-analysis of the deposited data

Results flagged for a closer look

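The knockout over wild-type ratio had opposite signs in the lineages for 2 of the 9 genes. For *Tox* the log2 ratio was -0.52 in CD8 T cells and 0.18 in Tregs, and for *Tbx21* it was 0.19 in CD8 T cells and -0.30 in Tregs. The difference between lineages was not tested, since each genotype is 1 library. The sign for *Tbx21* in CD8 T cells turned under 3 other settings, and the ratio of *Tox* in CD8 T cells was between -0.69 and -0.25 over all settings.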

How the results depend on the processing

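The ratio of knockout over wild type for the 9 genes in 2 lineages was recomputed under 9 alternatives, which gave 162 values. Of these, 131 stayed within the interval of the reported value, 28 moved outside it with the same sign or from an interval that included 0, and 3 changed sign. In CD8 T cells *Tbx21* was at -0.0065 with each cell given the same weight, at -0.10 with the stricter lineage rule and at -0.014 without cells with at least 2 proliferation UMIs. The median of the 9 genes in CD8 T cells, -0.16 as reported, was -0.45 with the stricter lineage rule and -0.011 in cells with no *Ccr7* UMI, an alternative chosen after seeing the data, and the cause was not tested. The median in Tregs stayed between -0.09 and 0.06. *Eomes* in Tregs was at -0.064 after thinning against -0.95.

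For 8 pairs, in the groups with at least 10 expected cells, the observed over expected number was recomputed under 8 alternatives. Of 216 values, 209 stayed within the interval and 7 moved. The log2 ratio for *Tox* with *Tcf7*, 0.04 as reported in wild-type CD8 T cells, was below 0 under every alternative there (-0.22 to -0.04) and was between -0.27 and -0.06 in knockout CD8 T cells. In Tregs it was between -0.17 and 0.14 in wild type and between -0.11 and 0.02 in knockout. Of 16 background shares recomputed at other UMI minimums 14 were within 1.5 times the reported share. The share of genes lower in knockout Tregs, 3.2%, was 4.94% with a minimum of 20 UMIs and 1.25% with 200.

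No paired analysis was possible because each genotype is 1 library with no replicate number. Counting depth limits *Eomes* in Tregs and pairs with under 10 expected cells, and the spread between mice or libraries is not measured.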

Other observations

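Cells outside both classes also held these transcripts. In each library 271 kept cells fell in neither class, and 206 of these in wild type and 178 in knockout had a *Cd8a* or *Cd8b1* UMI together with a UMI of *Cd4*, *Foxp3*, *Il2ra* or *Ikzf2*. In all 271 wild-type cells in neither class *Tox* was at 893 CPM (850.5 to 937), *Tcf7* at 70.9 CPM (59.3 to 84.2) and *Eomes* at 24.4 CPM (17.8 to 32.6). Cells with over 5000 genes, left out by the quality filter, numbered 65 in wild type and 55 in knockout, with a median of 32047 and 30875 UMIs. Their *Tox* was at 554 CPM (523 to 587) and 514 CPM (482 to 548), their *Eomes* at 73.6 CPM (62.6 to 86.1) and 38.5 CPM (30.0 to 48.7), and their *Lef1* at 83.0 CPM (71.2 to 96.2) and 65.5 CPM (54.3 to 78.4). The knockout value of *Eomes* was thus lower than the wild-type value in these cells, while *Lef1* did not differ beyond the overlap of its intervals. These cells were not divided by lineage, so a different mix of lineages and a different level per cell cannot be told apart.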
